A study of Mus musculus with 16 samples.

Results

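Of the 45037 probe sets for transcripts on the array, 9160 (20.3%) carry no gene symbol in the platform annotation used here, and these 9160 are described below as a class of unannotated transcripts. The rule uses the missing symbol alone, with control probe sets left out, and reads no measured value. A further 34945 probe sets have 1 symbol and 932 have several. A probe set is a group of short oligonucleotides read together as 1 value, and some probe sets can match more than 1 transcript. The annotation gives the 9160 no accession and no gene identifier either, so each is named by its probe set ID. That a probe set is not listed there does not show that it lies outside a gene, and its sequence and position were not used here.

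The samples are mouse two-cell embryos of 2 kinds, BBB and BCB, which share B6 ooplasm and a B6 paternal pronucleus. The maternal pronucleus is B6 in BBB embryos and C3H in BCB embryos, B6 and C3H being inbred mouse strains. Each kind was untreated or treated with α-amanitin (α-amantin in the labels), and each of the 4 groups has 4 arrays. The labels do not give the number of embryos per array, the dose or timing of the treatment, or whether replicates came from separate pools, so p-values measure the spread between these samples.

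At the two-cell stage the mouse embryo passes from RNA stored in the egg to RNA made from its own genome. Alpha-amanitin blocks RNA polymerase II, so transcripts that the embryo must make fail to appear, while RNA inherited from the egg is left to its own decay. Array designs of this generation included many probe sets taken from expressed sequence tags and predicted transcripts, some of which were never assigned to a gene. Values of a probe set are deposited as linear intensities. Changes below are differences of log2(intensity + 16), with their standard error from limma, and a probe set is called where limma's p, adjusted by the Benjamini-Hochberg method over every probe set tested, is under 0.05.

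All arrays had the same mean of 150 once the highest and lowest 2% of values were left out. Correlations between arrays were 0.976 to 0.990 within groups and 0.764 to 0.815 between treated and untreated arrays, taken across probe sets, which are not independent replicates. The labelled stage was set beside markers. Their lists were chosen with earlier results of these data known, so they are not an independent check. All 7 two-cell markers were lower with amanitin in both kinds, their summed intensity running from 14647 to 16341 on untreated and from 627 to 924 on treated arrays. Of 8 oocyte markers 7 were higher, with sums of 15098 to 18462 on untreated and 28207 to 34245 on treated arrays. Of the 8 cumulus and granulosa cell markers on the array, Amh stayed under the 40th percentile of each array. The 7 without Amhr2, which was set apart after its values were seen, summed to 79.8 to 124.8 untreated and 149 to 237.5 treated, while Amhr2 alone read 1886 to 2593 untreated and 36.3 to 73.3 treated. The 7 sperm markers summed to 48.2 to 134 and Tnp2 and Smcp were never at the 40th percentile. Poly-A controls, added before labelling, averaged 7.46 to 8.02 in log2 units on untreated and 9.07 to 9.89 on treated arrays, and hybridization controls 9.17 to 9.47 and 9.74 to 10.18. A rise or fall below is therefore relative to the scale of each array, and values scaled to these controls are given where they differ in direction or call.

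The unannotated probe sets were mostly dim. Their median of the mean level over all 16 arrays (an intensity, back-transformed from the log2 mean) was 7.31, beside 28.6 for probe sets with 1 symbol. A mean level of at least 100 was reached by 542 of them (5.92%), against 10498 (30.0%) of those with 1 symbol. On all 16 arrays at or above the array's 40th percentile were 1201 (13.1%, against 45.7%), and 2868 (31.3%, against 12.7%) were below it on every array. A probe set was tested where it reached that percentile on at least 4 arrays, which 4364 of the 9160 did (47.6%). The other 4796 were not tested and are counted as not called in every share over all 9160. A member that is high in 1 group alone can enter the tested set through that group, so counts over the 4364 are descriptions.

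The class held a smaller share of the summed intensity on treated arrays, although its own sum was higher there. In untreated BBB embryos it held 5.89%, 5.91%, 5.97% and 5.97% of the summed intensity on the 4 arrays, and in untreated BCB embryos 5.87% to 5.97%. With amanitin the share was 5.39% to 5.49% in BBB and 5.38% to 5.61% in BCB. The treated and untreated ranges did not overlap, while those of the kinds did. The members' own sum went from 561866 ± 13282 to 591784 ± 10088 in BBB and from 558242 ± 3799 to 591597 ± 9749 in BCB. The mean over all probe sets, here with the control probe sets included, went from 211 to 244 and from 211 to 242. The share of members at or above the 40th percentile was higher on treated arrays, going from 33.0% ± 0.783 (SD, n = 4) to 36.5% ± 0.559 in BBB and from 32.8% ± 0.210 to 37.2% ± 0.739 in BCB. The 95th percentile of the members' intensities went from 172 ± 3.55 to 128 ± 2.93 in BBB and from 168 ± 4.14 to 132 ± 1.18 in BCB. The 75th percentile of all probe sets was lower on treated arrays as well, at 118.5 against 87.4 in BBB and 117 against 89.2 in BCB.

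**Figure D1:**
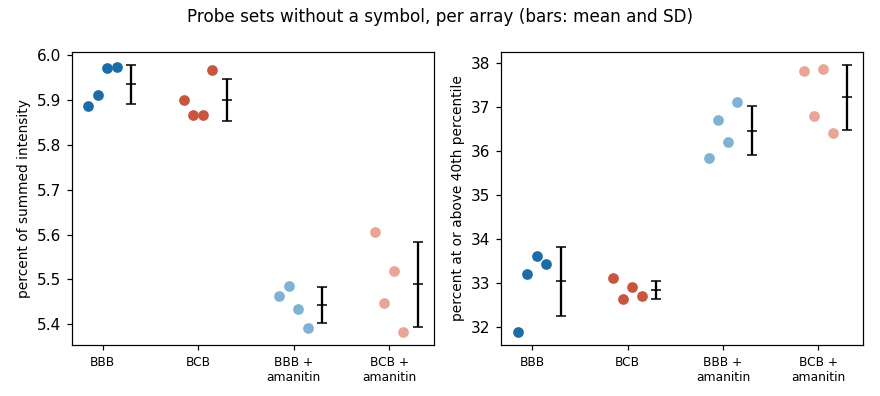
The share of each array's summed intensity held by the 9160 probe sets without a symbol (left, percent) and the share of them at or above that array's 40th percentile (right, percent), 1 point per array, with the mean and SD of 4 arrays. Treated arrays lie at 5.38% to 5.61% on the left, below all untreated arrays at 5.87% to 5.97%, and at 35.8% to 37.9% on the right, above all untreated arrays at 31.9% to 33.6%; neither axis starts at 0.

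With amanitin, the members with the largest falls lost nearly all signal. Probe set 1437952_at read 2336, 2537, 1930.0 and 2012 in BBB and 1.2, 0.7, 3.0 and 5.2 in BBB with amanitin, a log2 change of −6.90 ± 0.12 (SE; limma adjusted p 1.23e-21). In BCB it read 2323, 2359, 2279 and 2336, and 4.0, 4.1, 0.8 and 3.2 with amanitin (−6.95 ± 0.12; adjusted p 1.16e-21). Each treated array of both kinds was far below each untreated array. The size of such a fall depends on the pseudocount, and that in BBB was −9.46 with 1 and −5.08 with 64. Probe set 1438630_x_at went from 2899 ± 153 (SD, n = 4) to 10.9 ± 5.38 in BBB (−6.78 ± 0.13) and from 3172 ± 128 to 8.58 ± 3.32 in BCB (−7.03 ± 0.13).

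The next of these falls were of the same order in both kinds. Probe set 1438386_x_at went from 1731 ± 101 to 19.2 ± 17.1 in BBB (−5.74) and from 1891 ± 40.7 to 9.9 ± 3.79 in BCB (−6.21). For 1460065_at the change was −5.65 in BBB and −5.44 in BCB, and for 1444496_at it was −5.46 and −5.64. The brightest of the group untreated was 1447188_at, at 3939 ± 368 in BBB and 88.8 ± 37.4 with amanitin (−5.31; −5.02 in BCB). Probe set 1458851_at went from 1137 ± 213 to 9.15 ± 7.33 in BBB (−5.55) and from 673 ± 101 to 5.3 ± 2.55 in BCB (−5.01). Its untreated difference between the kinds (−0.74 ± 0.18, limma adjusted p 0.0717) did not pass. The other members named among the largest falls were 1447963_at (−5.38 in BBB), and in BCB 1446714_x_at (−5.57), 1459452_at (−5.36) and 1456702_x_at (−5.33). All of these were called in both kinds, and each kept direction and call under every scaling, filter and pseudocount run for the kind it was named in.

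Rises were smaller than falls. Probe set 1440750_at read 45.6, 57.3, 77.0 and 63.2 in BBB and 1280, 1197, 1003 and 1344 with amanitin (4.00 ± 0.13; limma adjusted p 1.18e-17). In BCB it went from 53.3 ± 8.05 to 1212 ± 62.5 (4.15 ± 0.13; adjusted p 5.60e-18). The 8 treated arrays all lay above the 8 untreated ones by more than 10 times. Scaled to the poly-A controls the rise in BBB was 2.38 and it stayed called. Probe set 1442462_at went from an intensity near the bottom of the scale, 3.93 ± 1.68, to 146 ± 55.7 in BBB (2.96 ± 0.20), and from 3.5 ± 2.27 to 118 ± 22.7 in BCB (2.77 ± 0.20).

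The other named rises started from untreated means between 15.2 and 198. Probe set 1445044_at went from 143 ± 26.7 to 942 ± 49.9 in BBB (2.60 ± 0.12) and from 151 ± 20.7 to 859 ± 42.3 in BCB (2.40 ± 0.12). For 1442854_at the change was 2.54 in BBB and 2.53 in BCB, for 1426772_x_at 2.5 and 2.51, for 1444989_at 2.44 and 2.54, for 1429778_at 2.43 and 2.15, and for 1444840_at 2.43 and 2.41. Probe set 1422327_s_at, named for its rise in BCB (2.56), rose by 2.41 in BBB. Scaled to the poly-A controls, 1445044_at was at 0.91 in BBB and 0.68 in BCB and 1442854_at at 0.84 and 0.81, and both stayed called.

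**Figure D2:**
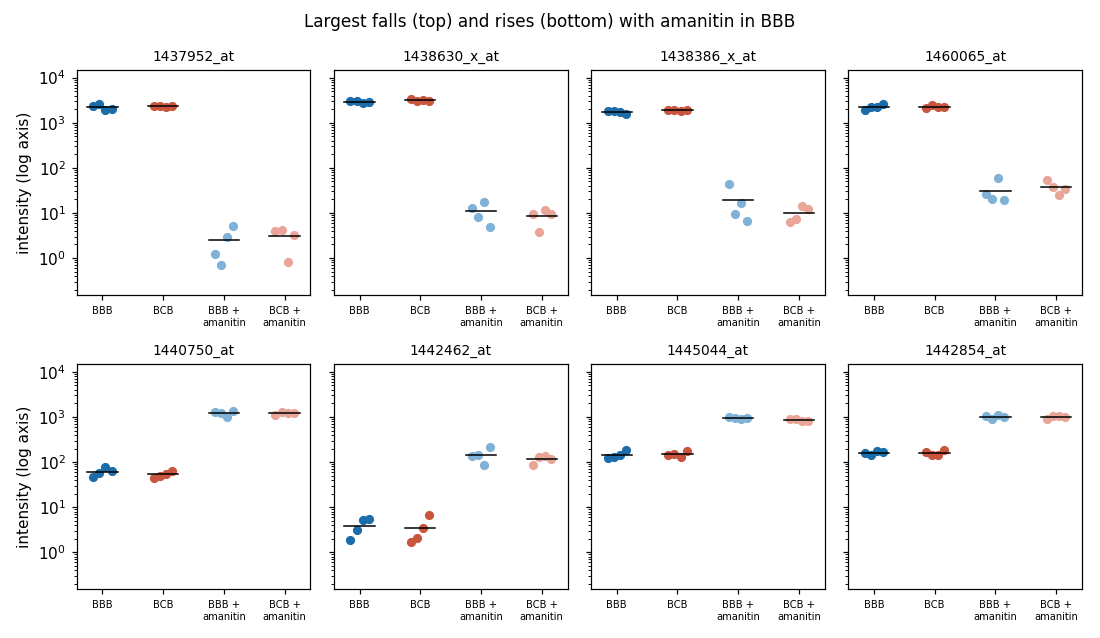
Intensity on each of the 16 arrays (log axis) for the 4 probe sets without a symbol with the largest falls (top row) and the 4 with the largest rises (bottom row) in BBB, 4 points per group with a line at their mean. Each treated array lies apart from each untreated array in every panel, and 1437952_at goes from 1930.0 or more to 5.2 or less.

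Over the whole class, 1064 members were called lower and 1041 higher with amanitin in BBB embryos. That is 24.4% and 23.9% of the 4364 tested, where 31.9% and 34.3% of all 31953 tested probe sets were called, and 11.6% and 11.4% of all 9160. In BCB embryos 969 were lower and 1319 higher, which is 22.2% and 30.2% of those tested beside 30.3% and 37.6% of all tested probe sets. Both shares were thus under the background in both kinds. The median log2 change of the tested members was 0.07 in BBB and 0.17 in BCB, beside 0.09 and 0.16 over all tested probe sets. Of the calls in BBB, 913 falls and 818 rises had no overlap between the 4 treated and the 4 untreated arrays, beside 28.7% and 29.9% of all tested probe sets, and in BCB 811 and 1011 (27.3% and 32.1%). Each of these counts is a smaller share of the 4364 tested members than the share beside it.

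The split into rises and falls depended on the scale. Falls made up 50.5% of the calls in BBB and 42.4% in BCB as deposited. Scaled to the hybridization controls there were 1502 falls and 508 rises in BBB and 1574 and 405 in BCB. Scaled to the poly-A controls there were 3299 falls and 43 rises in BBB and 3060 and 41 in BCB. Every member called lower as deposited was also called lower under both scalings, while 4.13% of the rises in BBB and 3.11% of those in BCB remained with the poly-A controls. The part of the control transcripts' own shift in the rises was not tested.

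Large falls were fewer than small ones. At least 2-fold falls were called for 515 members in BBB and 468 in BCB, where 19.6% and 18.9% of all tested probe sets fell that far. At least 2-fold rises were called for 302 and 316 members, where 13.8% and 14.3% of all tested probe sets rose that far. At least 8-fold falls were called for 78 members in BBB and 81 in BCB, where 3.87% and 3.78% of all tested probe sets fell that far. Of these members 68 were shared, which is 87.2% of the BBB list and 84.0% of the BCB list. The 1 member with an 8-fold rise in each kind was 1440750_at, where 0.0438% of all tested probe sets rose that far in BBB and 0.0407% in BCB.

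Because the class is dim, its shares were set beside probe sets with 1 symbol of like mean value. All 45037 probe sets were cut into 20 bins of equal size by their mean over the 16 arrays, and the share of 1-symbol probe sets called in each bin was averaged with the members' bin counts as weights. Probe sets with 1 symbol were lower with amanitin in BBB in 25.1% of cases as they stand and in 13.2% at the members' mean values, against 11.6% of the members, a difference of −1.55 percentage points. In BCB the shares were 24.0%, 12.2% and 10.6%, a difference of −1.64 points. For rises, 12.3% at like mean stood against 11.4% of the members in BBB (−0.95 points) and 14.4% against 14.4% in BCB (0.02 points). With bins of the mean over all 16 arrays, most of the gap between the raw shares was thus gone. For falls this did not hold in bins of the 8 treated arrays, where −11.01 points in BBB and −10.92 in BCB remained. In bins of all 16 arrays, falls of at least 2-fold were called for 5.62% of the members against 6.33% at like mean in BBB. In BCB it was 5.11% against 5.99%. For falls of at least 8-fold the order turned, with 0.852% against 0.727% in BBB and 0.884% against 0.711% in BCB. Probe sets of 1 array are not replicates, and no test was made of these differences.

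The sign of the small remaining difference changed with the level of the probe sets. In the 4 dimmest bins, which hold 3370 members (36.8%) at mean levels up to 5.09, no member was tested. In the next 6 bins, up to a mean level of 19.6, 10.9% of 3970 members fell in BBB against 13.96% of 1-symbol probe sets of like mean. In bins 11 to 15, up to 103, it was 33.2% of 1280 members against 36.2%. In the 5 brightest bins the order turned, with 38.2% of 540 members lower in BBB against 34.9%, and 37.6% against 34.6% in BCB. Rises in the brightest bins were 52.0% of members in each kind, against 52.8% in BBB and 53.5% in BCB.

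The sign also changed with the arrays that set the mean. When probe sets were binned by their mean over the 8 untreated arrays, the members' share of falls was above that of 1-symbol probe sets, by 2.04 points in BBB and 1.78 in BCB. When they were binned by the 8 treated arrays it was below, by −11.01 and −10.92 points. The share of rises moved the other way, to −5.17 and −4.57 points with untreated means and to 1.48 and 2.83 with treated means. A probe set binned by untreated arrays alone is placed by 1 side of the contrast it is then read in. The comparison at like mean therefore gives no direction or size that holds for each way of matching.

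**Figure D3:**
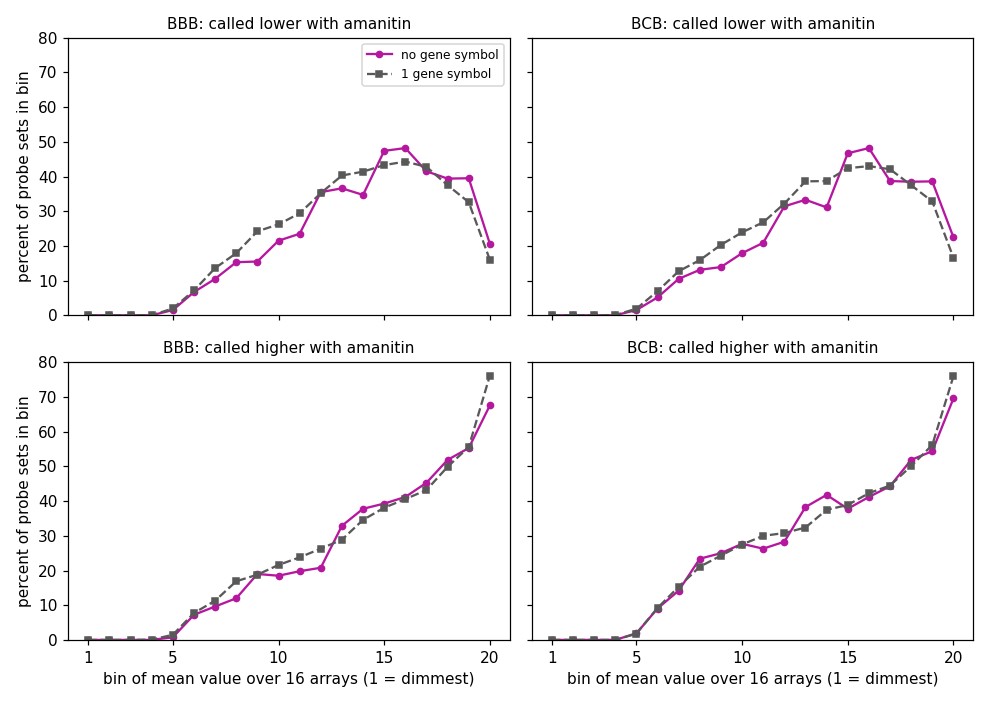
Percent of probe sets called lower (top) and higher (bottom) with amanitin in BBB (left) and BCB (right), in each of 20 bins of the mean value over 16 arrays, for probe sets without a symbol (circles) and with 1 symbol (squares); untested probe sets count as not called. For falls the circles lie under the squares from bin 5 to bin 11 and in bins 13, 14 and 17 in both kinds. They lie above them in bins 15, 16, 18, 19 and 20. The circles are furthest under the squares in bin 9 in BBB (15.5% against 24.2%) and in bin 14 in BCB (31.1% against 38.7%).

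A count that uses no fit was made of probe sets at or above the 60th percentile on all 4 arrays of 1 group and below the 40th on all 4 of the other. Signal was lost in this way with amanitin for 40 members in BBB and 48 in BCB (0.437% and 0.524% of the class, where 1.05% and 1.21% of all probe sets did so), and for 21 in both. At like mean, 0.7227% and 0.8287% of 1-symbol probe sets lost their signal. In both kinds 0.4391% did so at like mean, against 0.229% of the class. The 21 had mean intensities of 50.5 to 2204 in BBB and 0.775 to 7.88 over both treated groups. Besides 1437952_at, the brightest was 1459659_at, which read 837, 759, 668 and 681 in BBB, 587, 495, 545 and 480.4 in BCB, and between 1.0 and 9.0 on all 8 treated arrays. Next came 1436336_at, at 525 ± 64.3 in BBB and 3.48 ± 1.07 with amanitin (−4.79), and 1440459_at, at 370.3 ± 40.6 and 3.43 ± 1.86 (−4.31). These 3 were chosen after their values were seen.

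Signal was gained by 3 members in BBB and 4 in BCB (0.03275% and 0.04367% of the class, where 0.0533% and 0.0577% of all probe sets did so). At like mean, 0.05756% and 0.05698% of 1-symbol probe sets gained signal. In both kinds 0.006448% did so at like mean, against 0.0218% of the class. The latter share rests on 2 members, 1442462_at and 1439146_s_at. Probe set 1439146_s_at, chosen after its values were seen, read 1.8, 1.6, 3.4 and 9.1 in BBB and 46.8, 49.9, 64.1 and 27.7 with amanitin (1.64 ± 0.18). In BCB it went from 4.33 ± 0.727 to 44.4 ± 10.5 (1.55 ± 0.18).

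Most calls of members were made in both kinds, whose contrasts share no array, though less often than those of probe sets with 1 symbol. Of the falls, 854 were called in both, which is 80.3% of the BBB list and 88.1% of the BCB list. Of the rises 832 were called in both, 79.9% of the BBB list and 63.1% of the BCB list. The same shares of the called lists for probe sets with 1 symbol were 88.7% and 92.7% of falls and 90.2% and 83.6% of rises. Over all tested probe sets, not a called list, 28.0% were called lower in both kinds and 30.6% higher. The 854 and 832 are smaller shares of the 4364 tested members. Calls in opposite directions were made for 4 of the 4364 tested members (0.0917%) and for 0.0657% of all tested probe sets.

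**Figure D4:**
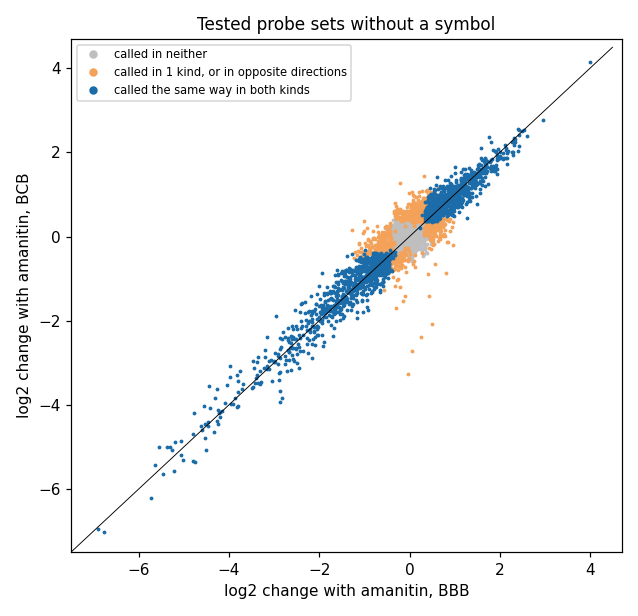
Log2 change with amanitin in BBB (horizontal) and BCB (vertical) for the 4364 tested probe sets without a symbol, with a line of equality; colours show calls in both kinds, in 1 kind or in opposite directions, and in neither. Points follow the line from about −7 to 4, and a few lie well under it near a BBB change of 0, among them 1422071_at at −0.04 in BBB and −3.27 in BCB.

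The ending of a probe set's name, which the choice of members did not use, says how its oligonucleotides were chosen. Plain _at probe sets match 1 transcript, _a_at match alternative transcripts of a gene, _s_at match transcripts of several genes and _x_at hold oligonucleotides that can also bind other sequences. Of the members 8600 (93.9%) are plain _at, against 77.2% of 1-symbol probe sets. The 196 _a_at members are brighter, with a median mean level of 61.9 beside 6.97 for plain _at, and 81.1% of them were tested against 46.1%. In BBB 32.1% of the _a_at members and 25% of the 252 _x_at members were lower with amanitin, where 1-symbol probe sets of like mean were lower in 26.2% and 20.3% of cases. Among the plain _at members 10.6% were lower, against 12.5%. Set beside 1-symbol probe sets of their own ending, with no matching by mean, the members' shares were lower, with 33.7% of _a_at, 32.4% of _x_at and 22.8% of plain _at probe sets with 1 symbol called lower. Median mean levels of 1-symbol probe sets were 64.7, 44.5 and 23.2 for these endings, against 61.9, 14.4 and 6.97 for members. Of the 11 members named above for their falls, 1438630_x_at, 1438386_x_at, 1446714_x_at and 1456702_x_at are of the _x_at form, so their signal may hold more than 1 transcript.

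Members were spread unevenly over the probe set numbers. Between numbers 1415670 and 1419999, 4.96% of probe sets lack a symbol, and between 1440000 and 1444999 44.6% do. In the first of these blocks 73.8% of the 214 members were tested and 27.6% were lower in BBB (24.3% of 1-symbol probe sets at like mean). In the second 45.1% of the 2228 were tested and 10.5% were lower (11.6%). Members of the first block were brighter than those of the second, at a median mean level of 31.9 against 6.92. Between these blocks the medians did not follow the numbers. They were 9.94, 13.3, 6.70 and 11.3 in the blocks that start at 1420000, 1425000, 1430000 and 1435000.

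The brightest members rose by modest amounts as deposited. Probe set 1449436_s_at had the highest mean of the class and went from 6826 ± 832 to 9783 ± 716 in BBB (0.52 ± 0.07). The next were 1427396_a_at (0.64), 1435643_x_at (0.50), 1453723_x_at (0.49) and 1455816_a_at (0.71), with changes of 0.54 to 0.79 in BCB for these 5. The direction of all 5 turned when scaled to the poly-A controls, to between −1.29 and −1.01 over both kinds, and their calls in BBB ended when scaled to the hybridization controls. With quantile normalization 1455816_a_at alone stayed called higher. The 3 brightest members called in none of the 5 contrasts were 1424609_a_at, at 4212 ± 296 in BBB and 4055 ± 249 with amanitin (−0.05 ± 0.07, limma adjusted p 0.506), 1424607_a_at (−0.02) and 1438925_x_at (−0.06). With quantile normalization or scaling to either set of controls all 3 were called lower with amanitin, the smallest adjusted p of each over the contrasts being 1.09e-07 or less. Whether members of neighbouring number such as 1424607_a_at and 1424609_a_at read 1 transcript is not given by the annotation.

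The strain of the maternal pronucleus was compared next, first in untreated embryos. In BCB embryos 15 members were higher and 10 lower than in BBB, which is 0.344% and 0.229% of those tested where 0.376% and 0.238% of all tested probe sets were called. Of these, 15 and 9 had no overlap between groups, beside 0.372% and 0.232% of all tested. Without adjustment 98 members were higher and 146 lower at p under 0.05, which is 2.25% and 3.35% of those tested beside 3.19% and 3.81% of all tested probe sets. The members' counts were thus near the background.

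The largest of these differences were transcripts seen with a C3H maternal pronucleus and near the bottom of the scale without it. Probe set 1422071_at read 4.0, 7.0, 6.8 and 0.4 in BBB and 170, 320.4, 346 and 357 in BCB, a difference of 3.90 ± 0.22 (SE; limma adjusted p 2.12e-11; 5.98 with a pseudocount of 1 and 2.37 with 64). Probe set 1436889_at read 0.3, 0.6, 0.2 and 3.8 in BBB and 82.0, 107, 131 and 124 in BCB (2.87 ± 0.16). The BBB arrays stood at a few units or less and no array of the groups overlapped. Probe set 1421280_at went from 4.18 ± 3.01 to 120 ± 34.3 (2.72 ± 0.20) and 1421281_at from 4.28 ± 1.12 to 115 ± 35.0 (2.66 ± 0.18). The numbers of this pair follow each other, and they may read 1 transcript. Probe set 1458719_at went from 13.6 ± 4.90 to 85.1 ± 11.3 (1.78 ± 0.18). These 5 kept their call under each scaling, filter and pseudocount run and wherever 1 array was left out, except that 1436889_at, which passed the filter through the 4 BCB arrays alone, was not tested without any of those.

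Members lower in BCB had smaller differences. Probe set 1424537_at read 112, 107, 88.7 and 93.4 in BBB and 50.3, 27.1, 27.0 and 40.5 in BCB (−1.17 ± 0.17; limma adjusted p 2.54e-04). Probe set 1431342_at went from 33.0 ± 6.30 to 8.15 ± 1.78 (−1.01 ± 0.20) and 1426061_x_at from 34.9 ± 6.58 to 9.33 ± 3.11 (−1.01 ± 0.18). The calls of the other 2 were weaker, 1440721_at at −0.86 ± 0.19 and 1441605_at at −0.81 ± 0.19. Leaving out 1 array ended the call of 1431342_at in 2 of 16 cases (BBB array 4, adjusted p 0.0610, and BCB array 3, 0.0509), of 1440721_at in 5 (up to 0.156) and of 1441605_at in 9 (up to 0.255). The count of 10 went to 4 without BBB array 4, 4 without BCB array 2, 2 without BCB array 3 and 6 without BCB array 4, and to 4 with a pseudocount of 1 and 28 with 64. A pseudocount of 1 ended the calls of 1426061_x_at (adjusted p 0.0650), 1440721_at (0.107) and 1441605_at (0.323), and the latter pair also lost theirs without the filter.

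The same members were then read on the arrays with amanitin. Those arrays enter the untreated calls through the shared estimate of spread, the filter and the adjustment of p. Of the 15 members higher in untreated BCB, 10 were higher with amanitin too, 5 of them at an unadjusted p under 0.05 and none called, and their median difference was 0.06 against 1.37 untreated. Of the 10 lower members 6 were lower, 1 at that p and none called, with medians of −0.02 and −0.84. Over all tested members the median difference with amanitin was itself 0.06, and over all tested probe sets 0.03. At that unadjusted p 7.61% of the tested members were higher and 3.12% lower, beside 6.76% and 4.12% of all tested probe sets. Probe set 1422071_at read 2.6, 10.3, 1.2 and 2.3 in BBB with amanitin and 9.6, 17.4, 25.8 and 11.7 in BCB with amanitin (0.67 ± 0.22, limma adjusted p 0.2496). Of the 15 higher members 14 were called lower with amanitin in BCB. In BBB 1 of the 15 was called lower and 4 higher. These contrasts share the untreated arrays with the choice of the 15. Over all tested probe sets 30.3% were called lower in BCB, and 31.9% lower and 34.3% higher in BBB. In BCB the exception was 1437299_at, named after its values were seen. It went from 225 ± 196 to 361 ± 21.3 in BCB and from 68.5 ± 12.8 to 199 ± 30.7 in BBB. Its untreated BCB mean rests largely on array 1, at 517, where the other 3 read 98.5 to 159.

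**Figure D5:**
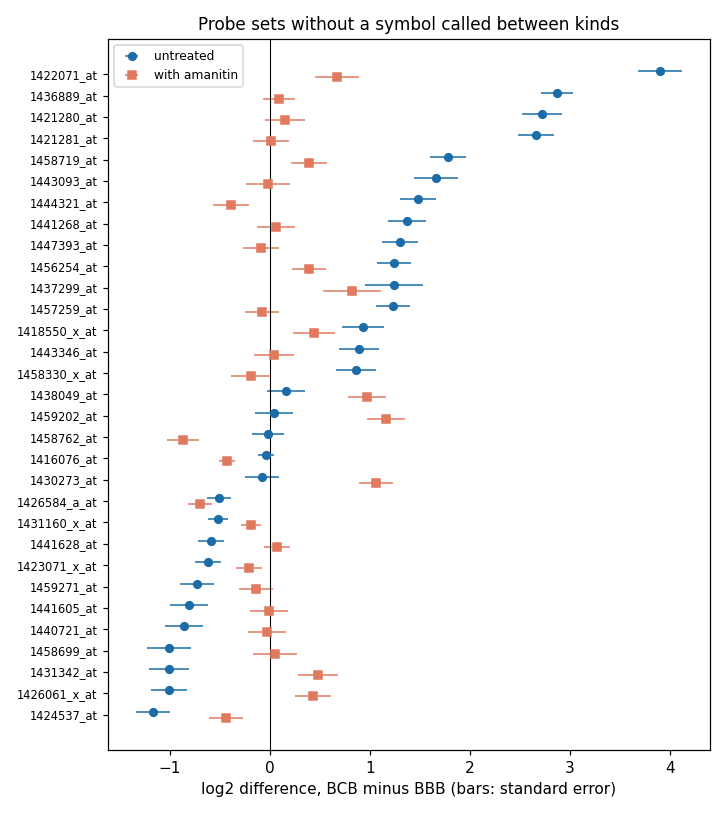
Log2 difference between BCB and BBB in untreated embryos (circles) and with amanitin (squares), with standard errors, for the 31 probe sets without a symbol called in either comparison, ordered by the untreated difference. The 5 at the top reach 1.78 to 3.90 untreated and 0.01 to 0.67 with amanitin.

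With amanitin, 3 members were higher and 3 lower in BCB than in BBB, which is 0.0687% of those tested in each direction, where 0.0814% and 0.0313% of all tested probe sets were called. All 6 had no overlap between groups, beside 0.0782% higher and 0.0282% lower of all tested. Probe set 1459202_at read 7.6, 4.2, 8.0 and 7.1 in BBB with amanitin and 24.0, 33.6, 47.7 and 35.5 in BCB with amanitin (1.16 ± 0.19, limma adjusted p 0.0191). Probe set 1430273_at went from 3.63 ± 0.403 to 25.2 ± 4.09 (1.06 ± 0.17, adjusted p 0.0191) and 1438049_at from 14.6 ± 5.27 to 44.2 ± 13.0 (0.97 ± 0.19, adjusted p 0.0495). In untreated embryos the differences of these 3 were 0.04, −0.08 and 0.16, and none was called.

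The lower members were 1458762_at, from 29.1 ± 5.77 to 8.88 ± 5.22 (−0.87 ± 0.16), 1426584_a_at, from 69.1 ± 5.58 to 36.6 ± 3.48 (−0.70 ± 0.12), and the bright 1416076_at. That one read 1006, 1252, 1132 and 1000.4 in BBB with amanitin and 797, 853, 834 and 758 in BCB with amanitin (−0.43 ± 0.08, limma adjusted p 0.0327), and its groups did not overlap. None of the 6 was called when scaled to the poly-A or to the hybridization controls, and 1458762_at with a pseudocount of 1, 1426584_a_at with 64 and 1438049_at with 64 or without the filter were not called either. Leaving out BCB with amanitin array 3 ended the calls of 1459202_at (adjusted p 0.0544) and 1430273_at (0.0517). The other 4 lost their call in 4 to 14 of the 16 cases, with adjusted p up to 0.136. The count of 3 lower went to 0 without BCB array 2, to 1 without BCB array 3 or BCB with amanitin arrays 1 or 2, to 6 without BBB with amanitin array 3 and to 7 without BCB with amanitin array 4. The count of 3 higher went to 0, 5 and 9 without BCB with amanitin array 3, BBB with amanitin array 3 and BCB with amanitin array 4.

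The last comparison asked whether the effect of amanitin differed between the kinds. It was more negative in BCB for 10 members and more positive for 4, which is 0.229% and 0.0917% of those tested beside 0.166% and 0.0908% of all tested probe sets. All 10 are among the 15 members higher in untreated BCB, and the contrasts share those arrays. The largest were 1422071_at (−3.23 ± 0.31, limma adjusted p 1.21e-06), with a change of −0.04 in BBB and −3.27 in BCB, 1436889_at (−2.78; 0.06 and −2.72), 1421281_at (−2.65; 0.25 and −2.40) and 1421280_at (−2.57; 0.50 and −2.08). The 10 went to 5 without BCB array 2.

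Of the 4 more positive members, 1431342_at and 1426061_x_at are among the 10 lower in untreated BCB. Probe set 1430273_at is among the 3 higher in BCB with amanitin. The interaction shares arrays with both of those contrasts. Probe set 1431342_at changed by −0.21 in BBB and 1.28 in BCB (1.50 ± 0.28, limma adjusted p 0.0165; 0.0509 without the filter) and 1426061_x_at by −1.28 and 0.16 (1.44 ± 0.26, adjusted p 0.0107). Probe set 1430273_at changed by −0.94 and 0.21 (1.15), and the bright 1460705_at by 0.78 and 1.35 (0.58 ± 0.12, adjusted p 0.0456), from 742 ± 24.4 to 1288 ± 140 in BBB and from 613 ± 14.8 to 1593 ± 122 in BCB. The calls of 1430273_at and 1460705_at ended when scaled to either set of controls, and in 14 and 15 of the 16 cases with 1 array left out (adjusted p up to 0.141 and 0.119). That of 1431342_at ended without BBB array 4 (0.0534) or BCB array 3 (0.0536). The count of 4 was 1 without either of these 2 arrays, and 2 without BBB arrays 1 or 2, BBB with amanitin array 1, BCB arrays 2 or 4, or BCB with amanitin arrays 2 or 3.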

How the data were processed

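Total RNA was measured, after Picopure extraction and ENZO biotin labelling per the labels, on 16 one-colour arrays. The authors deposited linear intensities with 1 decimal for 45037 probe sets and 64 controls. Each array has the same mean without the highest and lowest 2%, so the deposited intensities were scaled per array. The software is not given in the sources used here, and no sample column was left unused. No 2 arrays were identical.

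The members are probe sets without a symbol in the platform annotation. Members and marker lists were chosen with earlier results of these data known. Log2(intensity + 16) of all 16 arrays was fitted in limma 3.58.1 (R 4.3.3), with a mean per group and an intensity trend, for 31953 probe sets at or above their array's 40th percentile on at least 4 arrays. Calls are at a Benjamini-Hochberg adjusted p under 0.05 over these. On simulated data for the BBB amanitin contrast, run on 31953 probe sets, 182 of 200 changed probe sets were called, with 14 others. The number of arrays limits the precision (median standard error 0.18 for the members).

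Members were named by a rule. For each amanitin contrast these were the 8 largest falls and 8 largest rises called without overlap between groups, and for each strain contrast the 5 largest in each direction. They were joined by the 4 largest in each direction of the interaction, the 5 brightest and the 3 brightest called nowhere. Names outside the rule are marked. Replicate numbers did not pair the arrays, with a median correlation of deviations of −0.005 between arrays of the same number. The platform annotation gives no sequence for these probe sets. Alternatives are given in the closing section.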

Additional observations from a re-analysis of the deposited data

Results flagged for a closer look

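Among the named members and 3 measures of the whole class, 192 groups of 4 arrays were checked for 1 array far from the other 3, and 9 stood out, about the 1 in 20 that chance gives. Probe set 1444496_at read 48.0 on BBB with amanitin array 1 and 25.3 to 26.9 on the others. Probe set 1447188_at read 4277 on BCB array 2 (others 3656 to 3757), 1429778_at 97.8 on BBB array 2 (157 to 162), and 1431342_at 52.1 on BBB with amanitin array 1 (19.2 to 20.7). Probe set 1441605_at read 45.8 on BCB array 4 (32.7 to 33.2), 1422071_at 10.3 on BBB with amanitin array 2 (1.2 to 2.6), and 1436889_at 3.8 on BBB array 4 (0.2 to 0.6). Probe set 1455816_a_at read 3734 on BCB array 3 (3943 to 3982) and 1438925_x_at 4036 on BCB with amanitin array 1 (3206 to 3344).

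The effect of amanitin differed between the kinds, by limma's interaction term, for 9 named members. The interaction, the change in BCB minus that in BBB, was −3.23 for 1422071_at, −2.78 for 1436889_at, −2.65 for 1421281_at, −2.57 for 1421280_at and −1.40 for 1458719_at. It was 1.50 for 1431342_at, 1.44 for 1426061_x_at, 1.15 for 1430273_at and 0.58 for 1460705_at.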

How the results depend on the processing

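Limits come from the scale of the arrays and from dim probe sets. The cause of each change was not tested, except that a stricter filter tests fewer probe sets. Over 9 alternatives, 540 of 615 values of named members kept direction and side of the threshold. Under the 60th percentile filter 1426061_x_at, 1430273_at and 1458762_at were not tested, nor was 1458762_at under a filter on the mean.

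With the poly-A controls, falls were 3299 in BBB and 3060 in BCB and rises 43 and 41. Members lower in untreated BCB were then 27, both counts between kinds with amanitin were 0, and interactions above 0 were 2. With the hybridization controls, falls in BCB were 1574, rises 508 and 405, members higher in untreated BCB 23, both counts with amanitin 0, and interactions above 0 were 2. A 60th percentile filter gave 606 and 584 falls, 639 and 693 rises and 2 interactions above 0. A minimum log2 change of 1 gave 515 and 468 falls, 302 and 316 rises, 4 lower in untreated BCB and 0 lower with amanitin. Pseudocount 1 gave 4 lower in untreated BCB, and 6 lower and 5 higher with amanitin, and pseudocount 64 gave 28 lower in untreated BCB. Quantile normalization gave 6 lower with amanitin between kinds and no filter gave 5 higher. The replicate block gave 2 interactions above 0, ended the calls of 1441605_at, 1458762_at, 1438049_at, and of 1430273_at and 1460705_at in the interaction, and moved no other count by over 1.5 times. Arrays correlated best with their own number in 4 of 16 cases.

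The difference in the share of falls from 1-symbol probe sets of like mean was −0.03 points in BBB and −1.0 in BCB with the poly-A controls, −0.69 and −0.71 with the 60th percentile filter, −0.71 and −0.88 for 2-fold calls, and −2.91 and −3.10 over tested probe sets alone. It was 2.04 and 1.78 in bins of untreated means and −11.01 and −10.92 in bins of treated means. For rises in BBB it was 0.06 with the poly-A controls, 0.09 for 2-fold calls and −1.66 over tested probe sets. In bins of untreated means it was −5.17 in BBB and −4.57 in BCB, and in bins of treated means 1.48 and 2.83.

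The 5 brightest members turned in direction. With the poly-A controls, in BBB and then BCB, 1449436_s_at was at −1.26 and −1.22, 1427396_a_at at −1.14 and −1.18, 1435643_x_at at −1.28 and −1.22, 1453723_x_at at −1.29 and −1.26 and 1455816_a_at at −1.06 and −1.01. With the hybridization controls 1435643_x_at was at −0.01 and −0.19 and 1453723_x_at at −0.02 and −0.23, and in BCB 1449436_s_at at −0.19 and 1427396_a_at at −0.15. With quantile normalization 1449436_s_at was at −0.12 and −0.06, 1453723_x_at at −0.09 and −0.02, and 1435643_x_at at −0.09 in BBB.

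Leaving out each array in turn gave 981 to 1073 falls and 873 to 1052 rises in BBB, and 905 to 977 and 1120 to 1314 in BCB. Between kinds it gave 2 to 14 lower and 10 to 16 higher untreated, 0 to 7 and 0 to 9 with amanitin, and 5 to 11 and 1 to 6 in the interaction. The differences at like mean were −1.80 to −1.14 and −1.70 to −1.38 for falls and −1.24 to −0.68 and −0.38 to 0.47 for rises.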
